A study of Mus musculus with 6 samples.

Results

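The FAM19A family, whose genes are now also named Tafa, consists of 5 mouse genes, Fam19a1 to Fam19a5. Members were taken by symbol: all 5 rows of the gene count table whose Ensembl identifier carries such a symbol in GENCODE release M21 were used, of 55401 gene rows in all. The counts come from bulk RNA sequencing of the cerebral cortex of C57BL/6 mouse embryos at embryonic day 18, with 3 wild-type (WT) libraries and 3 libraries from Csmd3-/- embryos, which carry a knockout of Csmd3, whose product is a membrane protein built of CUB and Sushi repeats. All embryos came from matings of heterozygous parents. Both groups are described with the same strain, age and tissue, but markers of other tissues differed between them, as given below. The labels do not say which part of Csmd3 was removed, nor whether each library came from a single embryo. The p-values below therefore measure the spread between these libraries, which may be technical in part.

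FAM19A proteins are small secreted proteins with conserved cysteines that are distantly related to chemokines and are made mainly in the brain. FAM19A1 to FAM19A4 are known to bind neurexins, presynaptic adhesion proteins, while FAM19A5 is the most divergent member. Cell-surface receptors have been reported for single members, among them GPR1 for FAM19A1, the formyl peptide receptor FPR1 for FAM19A4, and the sphingosine receptor S1PR2, FPR2 and the synaptic adhesion protein LRRC4B for FAM19A5.

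The family relation can be read in the coding sequence. In an alignment of the 5 annotated coding sequences (399 to 408 bases, GENCODE M21 transcripts), 107 of 426 columns held the same base in every member. The 60-base window with the most shared bases, 31 of 60, is shown to let the members be compared. It is written 5′ to 3′ on the coding strand, with capitals for bases shared by all 5, and in each gene it joins 2 exons.
Fam19a1: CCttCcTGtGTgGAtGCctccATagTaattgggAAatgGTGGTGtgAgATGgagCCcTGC
Fam19a2: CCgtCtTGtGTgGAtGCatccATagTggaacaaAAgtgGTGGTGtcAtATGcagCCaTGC
Fam19a3: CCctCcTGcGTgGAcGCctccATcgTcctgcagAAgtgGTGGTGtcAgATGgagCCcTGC
Fam19a4: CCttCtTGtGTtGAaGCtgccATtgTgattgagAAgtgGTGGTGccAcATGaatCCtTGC
Fam19a5: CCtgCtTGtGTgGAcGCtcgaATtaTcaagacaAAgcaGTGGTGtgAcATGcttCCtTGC
The window covers coding bases 244 to 303 of Fam19a1, 256 to 315 of Fam19a2 and Fam19a4, and 247 to 306 of Fam19a3 and Fam19a5, counted from the first base of the start codon. Fam19a3 and Fam19a4 were the most alike pair over the whole coding sequence (64.7% identical bases), followed by Fam19a2 and Fam19a4 (63.9%). Fam19a5 shared 45.3% to 50.5% of its aligned bases with the others, which shared 55.3% to 64.7% among themselves. The longest run of identical bases between any 2 members was 17 bases, between Fam19a3 and Fam19a4.

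The members lie on 4 chromosomes, given here in GRCm38 (mm10) coordinates of GENCODE M21. Fam19a1 (ENSMUSG00000059187.12, chromosome 6, 96113154 to 96657198, plus strand) spans 544 kb, and Fam19a4 (ENSMUSG00000046500.8, chromosome 6, 96831203 to 97060413, minus strand) begins 174 kb beyond its end. Fam19a2 (ENSMUSG00000044071.9, chromosome 10, 123263996 to 123741204, plus strand) spans 477 kb, Fam19a5 (ENSMUSG00000054863.9, chromosome 15, 87544299 to 87759364, plus strand) 215 kb, and Fam19a3 (ENSMUSG00000055865.8, chromosome 3, 104767406 to 104781840, minus strand) 14.4 kb. Fam19a5 is on the chromosome of Csmd3 but 38.8 Mb away from it. The small genes annotated within Fam19a1 and Fam19a2 share no exon bases with them and held at most 12 counts in any library. Fam19a3 shares 275 exon bases with the same-strand transcript Gm43584, so its few counts are uncertain, and it overlaps Ppm1j on the opposite strand without shared exon bases.

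The 6 libraries held 54244288 to 68269607 deposited counts in total each. Low counts piled up at 4 (1298 genes in WT library 1, against 492 at 3 and 318 at 5), so 1 sequenced fragment appears to add about 4 counts. Csmd3 itself (chromosome 15, 47580637 to 48792063) had 992, 765 and 867 counts in WT and 675, 653 and 543 in Csmd3-/-, a log2 fold change of -0.59 (SE 0.13; adjusted p = 0.0233, edgeR quasi-likelihood test over 19844 genes). It was lower in all 3 Csmd3-/- libraries, but the call was lost without WT library 1 or any Csmd3-/- library (highest adjusted p = 0.101), so it checks the labels only weakly. The layer marker Tbr1, used to check the cortex label, was at 355, 351 and 350 CPM in WT and at 347, 341 and 139 CPM in Csmd3-/-. Csmd3-/- library 3 also stood apart from the other 5 in Ttr, a transcript of the choroid plexus (452 CPM against 0 to 35.7). Among the deep-layer markers it stood apart in Tbr1 only. None of the other deep-layer markers showed such a drop in that library, and Bcl11b was at 334, 330 and 316 CPM in Csmd3-/-. CPM is the deposited count scaled to library size, with TMM factors.

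Fam19a2, Fam19a5 and Fam19a1 were expressed in this tissue, whereas Fam19a3 and Fam19a4 were at the limit of detection. Per exon length, Fam19a2 had the highest mean level in WT, at 21.9 ± 2.29 CPM per kilobase (SD, n = 3), and Fam19a5 stood next at 15.9 ± 3.19. All 3 WT libraries of Fam19a2 lay above all 3 of Fam19a5, and the ratio of the 2 levels was 1.40 ± 0.158. Fam19a1 was far lower at 1.65 ± 0.295 CPM per kilobase, and Fam19a5 exceeded it 9.85-fold (± 2.58) without overlap of libraries. Fam19a3 (0 to 0.115 CPM per kilobase) and Fam19a4 (0 to 0.0705) came last and cannot be ordered, since their libraries overlapped. With 3 libraries each, an exact permutation test of such an order cannot go below p = 0.10.

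In the Csmd3-/- libraries the order at the top was no longer separable. Fam19a2 was at 12.96 ± 0.482 CPM per kilobase and Fam19a5 at 12.8 ± 1.03, and their libraries overlapped. Fam19a1 was at 0.527 ± 0.0451. The summed level of the 5 members went from 39.6 ± 5.50 to 26.3 ± 1.57 CPM per kilobase, and the groups did not overlap. As a share of that sum, Fam19a1 made up 4.20% ± 0.83 in WT and 2.0% ± 0.0529 in Csmd3-/-, Fam19a2 55.6% ± 2.34 and 49.3% ± 1.47, and Fam19a5 40.0% ± 2.72 and 48.5% ± 1.3.

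**Figure D1:**
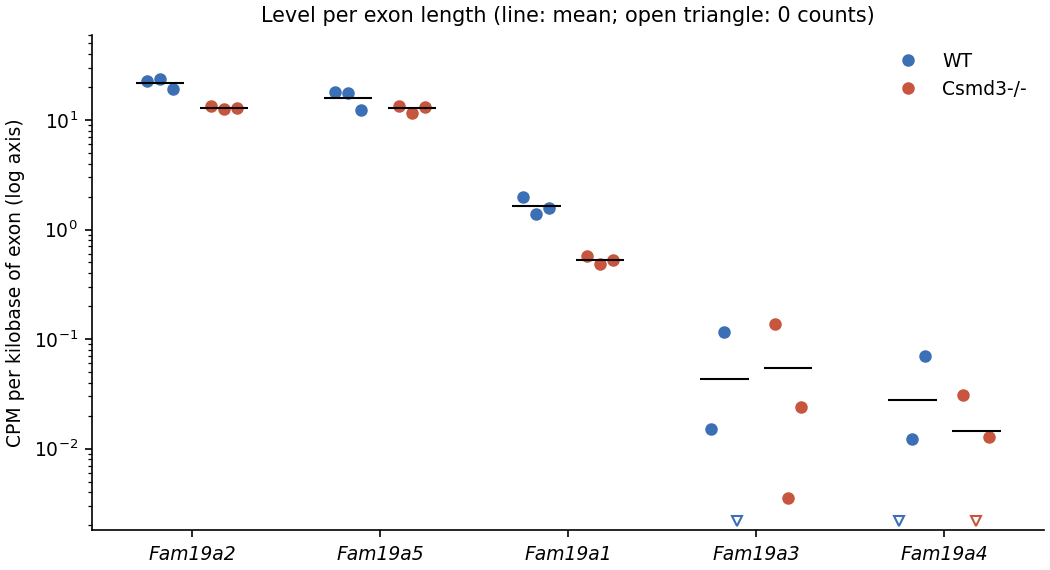
Level of each member per kilobase of exon, on a log axis, with 3 points per group and a line at the mean. Open triangles at the bottom edge mark libraries with 0 counts. Fam19a2 and Fam19a5 stand highest, Fam19a1 about a decade lower, and Fam19a3 and Fam19a4 near 0 with scattered points.

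The family was put forward with the comparison of Csmd3-/- and WT already known, so its values in that comparison are given as a description, with no test, and nothing is read from their count. In that fit 503 of 19844 genes, or 2.53%, were lower at an adjusted p under 0.05, and 5.21% were higher. Of the 5 members, 3 passed the filter on low counts (Fam19a1, Fam19a2 and Fam19a5). Fam19a1 and Fam19a2 met the threshold, both in the lower direction, Fam19a5 did not, and none was higher. The groups of Fam19a1 and Fam19a2 did not overlap, as was the case, in the lower direction, for 13.5% of all tested genes. Over all tested genes the median log2 fold change was 0.00. In bulk tissue, fewer cells that express a gene and less RNA per cell cannot be told apart.

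Fam19a1, whose secreted product is reported to act on GPR1, showed the widest difference of the 3. Its deposited counts were 495, 340 and 381 in WT and 165, 128 and 124 in Csmd3-/-. Every Csmd3-/- library stood below every WT library, and the 3 Csmd3-/- values lay close together. In CPM the means were 6.93 ± 1.24 and 2.22 ± 0.19 (SD, n = 3), so that the Csmd3-/- level was 32.0% of WT. The log2 fold change was -1.64 (SE 0.19). Among 15296 genes with a mean of at least 1 CPM, it ranked 25 from the lowest fold change. The smallest of these counts, 124, corresponds to about 31 fragments, which carries a relative counting error of 18.0%.

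Fam19a2, the most abundant member, had 6400, 6424 and 5192 counts in WT and 4348, 3726 and 3337 in Csmd3-/-. Again no library of a group reached into the other. The means were 103 ± 10.7 and 60.8 ± 2.26 CPM, or 59.1% of WT, with a log2 fold change of -0.76 (SE 0.09). It ranked 297 of the same 15296 genes. Ttr, a transcript of the choroid plexus, was abundant in Csmd3-/- libraries 2 and 3. Without those 2 libraries both genes stayed lower (-1.52 for Fam19a1 and -0.69 for Fam19a2) but missed the threshold with a single Csmd3-/- library left. That library still held Ttr, at 131 counts against 4, 0 and 0 in WT. Its summed meningeal markers were at 701 CPM, against 18.0 to 25.5 CPM in WT. Leaving out the 2 libraries thus did not remove the signal of other tissues, and its part in both genes was not tested.

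Fam19a5 had 3097, 2987 and 2041 counts in WT and 2699, 2133 and 2128 in Csmd3-/-. In CPM the WT libraries were at 51.9, 51.5 and 35.6 and the Csmd3-/- libraries at 39.3, 33.7 and 38.4. WT library 3 fell inside the Csmd3-/- range, and the other 2 WT libraries stood above it. The log2 fold change was -0.32 (SE 0.14), which missed the threshold. It was -0.48 without WT library 3, where it met the threshold, and -0.24 without WT library 1 or 2.

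Fam19a3 and Fam19a4 were too low for a fold change. Fam19a3 had 4, 30 and 0 counts in WT and 42, 1 and 6 in Csmd3-/-, and Fam19a4 had 0, 4 and 23 in WT and 12, 0 and 4 in Csmd3-/-. Summed over a group, this is about 8.5 and 12.3 fragments of Fam19a3 and 6.75 and 4.0 of Fam19a4. Both genes had overlapping groups, and no difference was detectable at this depth. A library with 0 counts allows up to 3 fragments, or 12 deposited counts, which is 0.175 to 0.216 CPM across the 6 libraries. This limit covers counting error only.

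**Figure D2:**
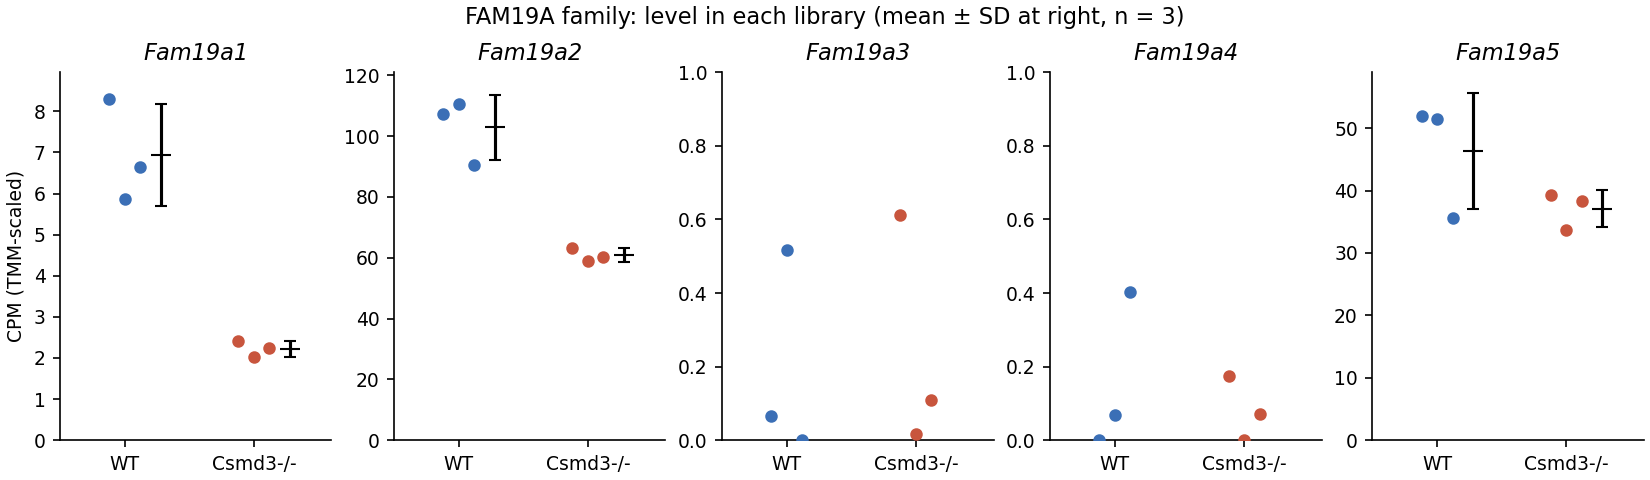
TMM-scaled CPM of each member in the 3 WT and 3 Csmd3-/- libraries, each panel with its own axis from 0, and mean ± SD for the 3 genes that passed the filter. Fam19a1 and Fam19a2 separate the groups, Fam19a5 overlaps through WT library 3, and Fam19a3 and Fam19a4 stay under 1 CPM.

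Markers of other cells also moved with genotype in these libraries. For scale, 5.21% of all 19844 tested genes were higher and 2.53% lower at the same threshold. Of 9 meningeal markers 9 rose, and their summed level was 18.0 to 25.5 CPM in WT and 518 to 701 CPM in Csmd3-/-. Of 9 microglia and macrophage markers 8 rose (32.1 to 38.7 against 89.5 to 111 CPM), of 6 endothelial markers 4 rose (148 to 176 against 273 to 347 CPM), and of 7 markers of dividing cells 6 rose (311 to 387 against 539 to 551 CPM). Choroid plexus markers summed to 0.775 to 1.09 CPM in WT, with Folr1 at 0, and to 9.05, 45.4 and 486 CPM in Csmd3-/- libraries 1 to 3. Ttr alone was at 1.91, 35.7 and 452 CPM in these 3 libraries. Of the 6 choroid plexus markers 4 were tested and 1 rose past the threshold, and Ttr did not pass. Among 10 markers of neurons of all kinds 4 fell and 0 rose, with a median log2 fold change of -0.26, and their sum was 7025 to 8280 CPM in WT and 6148 to 6456 CPM in Csmd3-/-. Upper-layer neurons had 2 of 8 markers lower (median -0.04), deep-layer neurons 2 of 8 (median -0.05) and interneurons 2 of 10 (median -0.34), with 0 higher in each. In oligodendrocyte precursors 3 of 6 fell and 1 rose, and in radial glia and astrocytes 1 of 9 rose. Erythroid genes had 0 of 6 past the threshold. The part of these other cells in the values of the family was not tested.

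Measured against the neuron markers, the groups of Fam19a1 and Fam19a2 did not overlap, and those of Fam19a5 overlapped, as was so for each gene in CPM. For every 1000 counts of the 10 neuron markers, Fam19a1 had 1.0, 0.743 and 0.947 counts in WT and 0.372, 0.317 and 0.364 in Csmd3-/-, so that the Csmd3-/- mean was 39.1% of WT. Fam19a2 had 12.9, 14.0 and 12.9 against 9.80, 9.22 and 9.79, or 72.2% of WT. Fam19a5 had 5.96 ± 0.777 and 5.87 ± 0.518, or 98.5% of WT, with overlapping groups. The summed markers did not move alike, and the sum gives abundant markers the most weight. Tubb3, the most abundant in WT at 3094 CPM, was at 74.7% of WT in Csmd3-/-. Dcx, at 1441 CPM in WT, was at 102%. The percentages therefore depend on the markers summed and are no measure of neuron content. The ratio of Fam19a2 to Fam19a1 per exon length went from 13.6 ± 2.93 to 24.7 ± 1.31, and that of Fam19a5 to Fam19a1 from 9.85 ± 2.58 to 24.2 ± 0.588, both without overlap. These ratios are built from the same comparison and are given as a description.

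**Figure D3:**
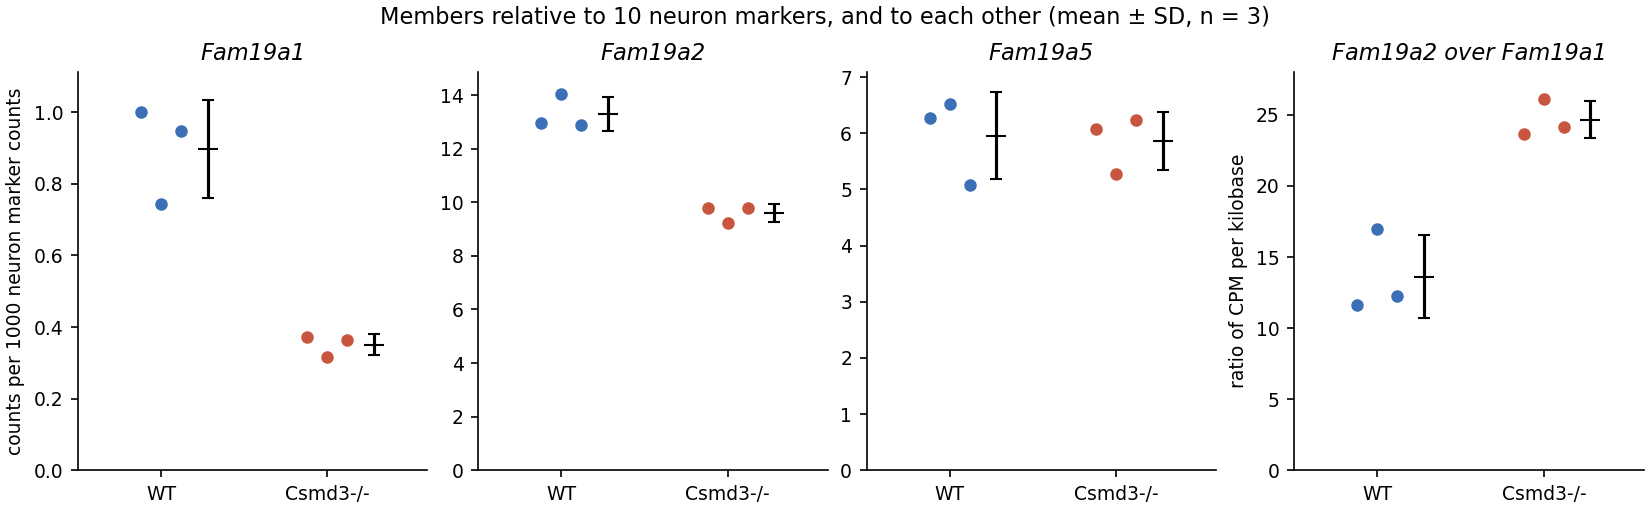
The first 3 panels show counts of Fam19a1, Fam19a2 and Fam19a5 per 1000 counts of 10 neuron markers, and the last shows the ratio of Fam19a2 to Fam19a1 in CPM per kilobase. Points are libraries, bars mean ± SD (n = 3), and all axes start at 0. Fam19a5 is at about the same ratio in both groups (98.5% of WT), Fam19a1 at 39.1%.

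Of the neurexins, which FAM19A1 to FAM19A4 bind, Nrxn2 and Nrxn3 are described. Nrxn2 fell from 372 ± 41.0 to 281 ± 17.9 CPM (-0.40, SE 0.09; edgeR adjusted p = 0.0268), and it was lower in all 3 Csmd3-/- libraries than in any WT library. Nrxn3 was at 29.7 ± 4.20 and 24.0 ± 5.78 CPM (-0.30, SE 0.18) and did not pass. Nrxn2 lost its call without any library but WT 3 (highest adjusted p = 0.122).

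The reported receptors of single members were mostly faint or unsteady. S1pr2, the sphingosine receptor reported for FAM19A5, had 235, 262 and 313 counts in WT and 671, 519 and 597 in Csmd3-/-. It rose from 4.64 ± 0.771 to 9.58 ± 1.29 CPM (1.05 on the log2 scale, SE 0.18; edgeR adjusted p = 0.00838) and kept its call with any single library left out. In the same libraries the endothelial and meningeal markers rose as given above, and their part in the level of S1pr2 was not tested. Lrrc4b had 24299, 17177 and 10110 counts in WT and 6966, 20927 and 17737 in Csmd3-/-, so the groups overlapped widely (-0.23, SE 0.60). Gpr1 had 0 to 18 counts in WT and 8 to 21 in Csmd3-/- and did not pass (0.86, SE 1.14). Fpr1 (0 to 12 counts in WT, 0 to 8 in Csmd3-/-) and Fpr2 (0 in all but Csmd3-/- library 2, with 12) were below the filter. Of the 5 receptor genes, 3 were thus tested and 1 rose. The median of the 3 tested genes was the value of Gpr1 itself, a gene with at most 21 counts in any library, which ran from 0.29 to 2.71 with single libraries left out and was -0.12 without Csmd3-/- libraries 2 and 3.

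Neurexins have many other extracellular ligands, and most of these did not pass. Of 18 genes 17 were tested, 4 fell and 1 rose, with a median log2 fold change of -0.36. Cbln1, a secreted bridge between neurexins and glutamate delta receptors, fell from 33.9 ± 3.84 to 21.3 ± 1.91 CPM (-0.67, SE 0.12; edgeR adjusted p = 0.00979). Of the neurexophilins, secreted ligands of alpha-neurexins, Nxph1 fell from 24.5 ± 3.55 to 15.9 ± 0.513 CPM (-0.62, SE 0.12) and Nxph3 from 88.6 ± 9.80 to 69.1 ± 3.94 CPM (-0.36, SE 0.09). Clstn3, a calsyntenin, fell from 101 ± 13.2 to 76.5 ± 3.06 CPM (-0.40, SE 0.10). Nlgn2, the neuroligin of inhibitory synapses, rose from 334 ± 24.3 to 407 ± 15.9 CPM (0.28, SE 0.07; edgeR adjusted p = 0.0459). Nlgn2 missed the threshold with any single library left out and with RLE scaling or a fit that was not robust (highest adjusted p with a library left out 0.162). Nxph3 and Clstn3 missed it without any library but WT 3, Nxph1 without any Csmd3-/- library and Cbln1 without Csmd3-/- library 3 (highest adjusted p = 0.18 for Nxph3, 0.161 for Clstn3, 0.0686 for Nxph1 and 0.0534 for Cbln1). Over all 19844 tested genes, 2.53% were lower and 5.21% higher at the same threshold. Of the 25 partner genes analysed 22 were tested, and of these 5 fell and 2 rose. Without Csmd3-/- library 3 alone 0 fell, and without Csmd3-/- libraries 2 and 3 neither direction held any call.

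**Figure D4:**
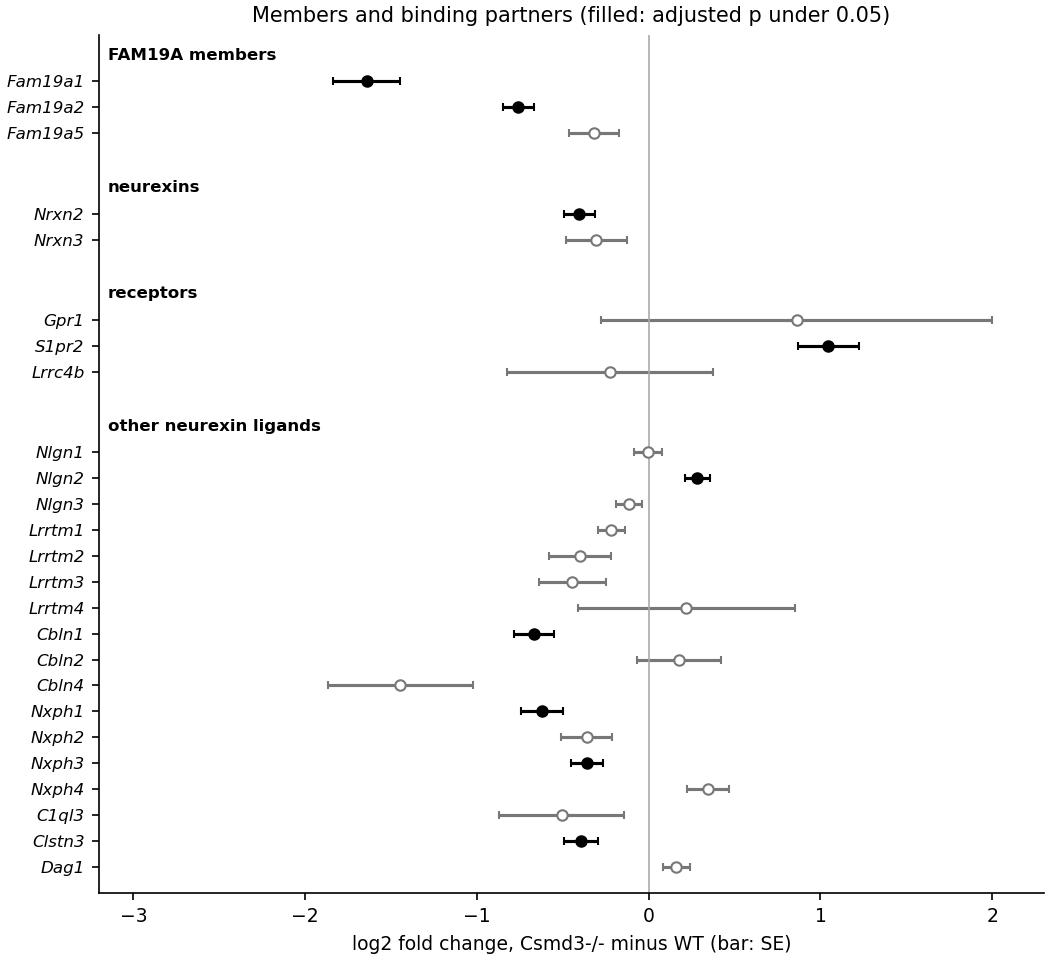
Log2 fold change of Csmd3-/- minus WT with its SE for the 3 tested members and the 22 tested partner genes, grouped by role. Filled points had an adjusted p under 0.05. Fam19a1 has the lowest value (-1.64), and S1pr2 the highest of the filled points (1.05).

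The genes whose profile over the 6 libraries came closest to each member were found by the root-mean-square distance of log2 CPM, each profile centred on its own mean, among 13101 other genes with a mean of at least 1 CPM and a symbol that is not provisional (Gm, Rik and accession-like symbols were left out). The distance includes the difference between genotypes, so close genes have similar fold changes by construction. For Fam19a1 the closest were Rasgrf2 (distance 0.16), an exchange factor for Ras and a marker of upper-layer neurons, Kcns1 (0.21), a modifier subunit of potassium channels, and Cobl (0.22), an actin nucleator of neurons. Rasgrf2 had 864, 682 and 712 counts in WT and 385, 267 and 296 in Csmd3-/-. Its log2 fold change was -1.35 (SE 0.16), that of Kcns1 -1.91 (SE 0.34) and that of Cobl -1.19 (SE 0.14). In all 3 genes, as in Fam19a1, WT library 1 was the highest library.

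The genes closest to Fam19a2 lay at smaller distances. The distance includes counting error, and the lowest library held about 834 fragments of Fam19a2 against 31 of Fam19a1. The gap between genotypes was also wider in Fam19a1. The distances therefore do not rank the members by how closely other genes follow them. Tusc1 lay at a distance of 0.03, Gdf10, a secreted factor of the TGF-beta family, at 0.05, and Atp1b1, the beta subunit of the sodium pump, at 0.05. Their log2 fold changes were -0.77 (SE 0.13), -0.73 (SE 0.13) and -0.72 (SE 0.08). The closest to Fam19a5 were Lysmd2 (0.04), Dok7, an adaptor of the muscle-specific kinase MuSK (0.05), and Tex264, a receptor for autophagy of the endoplasmic reticulum (0.05). These 3 shared the low value in WT library 3 and did not pass, with log2 fold changes of -0.26 (SE 0.18), -0.27 (SE 0.17) and -0.30 (SE 0.14). Members were farther from each other: Fam19a1 and Fam19a2 at 0.47, Fam19a2 and Fam19a5 at 0.25, and Fam19a1 and Fam19a5 at 0.69.

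**Figure D5:**
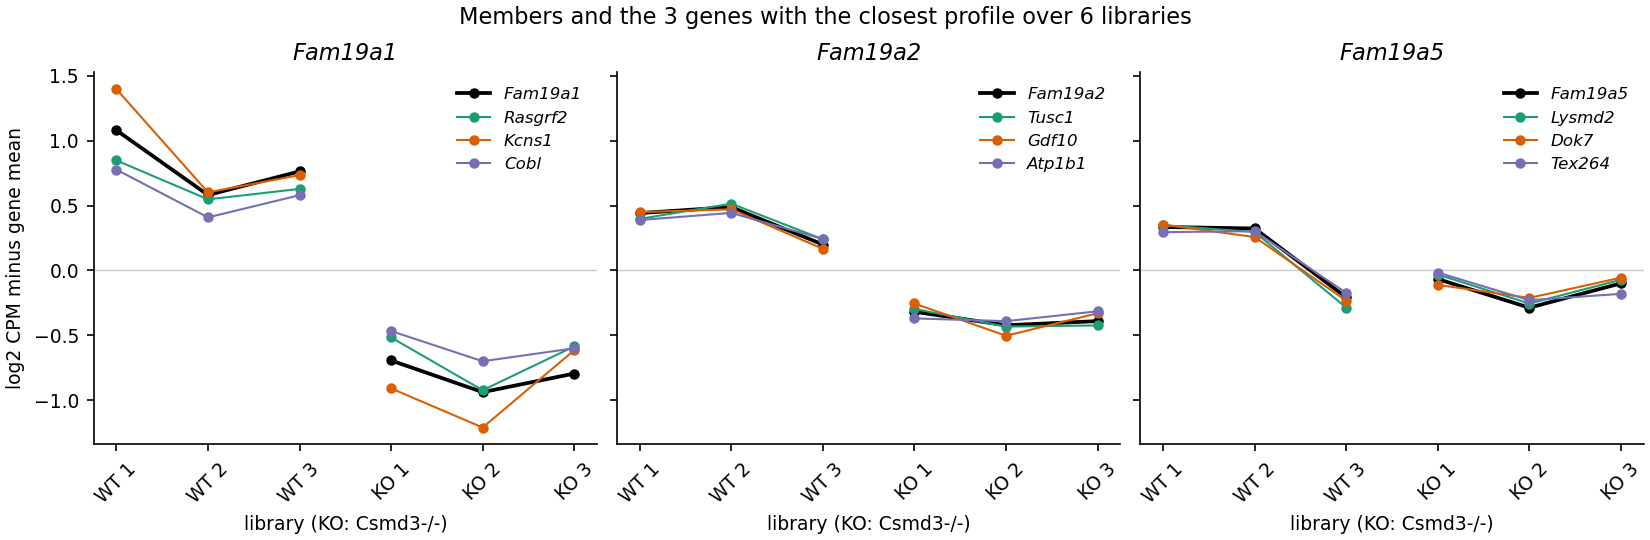
Log2 CPM minus the mean of each gene in the 6 libraries (KO: Csmd3-/-), for each tested member in black and its 3 closest genes in colour. Lines join libraries of a group to guide the eye, and libraries have no order. Fam19a1 shows the widest gap between groups, and in the panel of Fam19a5 WT library 3 lies near the Csmd3-/- libraries.

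The promoters of the expressed members differ in base composition, and their upstream sequence is shown for that reason. Sequences are from RefSeq (GRCm38.p6), plus strand, with CG dinucleotides in capitals, and each stretch ends just before the earliest start of the gene in GENCODE M21 or RefSeq. For Fam19a5 that is the RefSeq start, which lies upstream of the GENCODE start given above. They cover chr6:96112904-96113153 for Fam19a1, chr10:123263826-123263995 for Fam19a2 and chr15:87544049-87544218 for the upstream start of Fam19a5.
Fam19a1: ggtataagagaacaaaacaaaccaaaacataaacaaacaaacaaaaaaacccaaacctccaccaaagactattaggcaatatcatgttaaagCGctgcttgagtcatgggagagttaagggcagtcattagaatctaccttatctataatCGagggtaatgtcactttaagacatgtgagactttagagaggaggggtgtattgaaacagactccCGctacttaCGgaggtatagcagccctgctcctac
Fam19a2: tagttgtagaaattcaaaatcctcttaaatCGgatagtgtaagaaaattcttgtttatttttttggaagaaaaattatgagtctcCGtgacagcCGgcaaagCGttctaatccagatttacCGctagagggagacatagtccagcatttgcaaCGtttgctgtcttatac
Fam19a5: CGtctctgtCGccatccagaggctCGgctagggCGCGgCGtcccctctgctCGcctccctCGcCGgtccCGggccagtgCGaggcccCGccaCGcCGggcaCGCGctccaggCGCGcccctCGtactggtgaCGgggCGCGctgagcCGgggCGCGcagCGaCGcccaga
The stretch of Fam19a1 holds 4 CG dinucleotides in 250 bases, that of Fam19a2 6 in 170 and that of Fam19a5 27 in 170. The full RefSeq windows hold 300 bases, from 250 before to 50 after the start that belongs to the window. For Fam19a2 and Fam19a5 that start lies downstream of the one at which the printed stretch ends. Over these windows GC content was 42.0% for Fam19a1 and 41.7% for Fam19a2, against a median of 52.7% over 32851 mouse promoters. At 83.7%, the window of Fam19a5 had a higher GC content than 99.8% of them, and its second start, farther downstream, was at 81.0%. Fam19a3 (53.7%) and Fam19a4 (66.7%) lay between. The E-box pattern CANNTG, read on both strands, occurred 1 time in the window of Fam19a1 and 2 times in that of Fam19a2. It occurred 2 times in the window of Fam19a3, 3 times in that of Fam19a4 and 0 times in both windows of Fam19a5. Of all windows 72.3% held it. CCAAT, also on both strands, occurred once in the windows of Fam19a2 and Fam19a4 (37.4% of all windows), and TATAAA in none of the 6 windows of the family (13.6%). Such matches describe letters only.

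Of the 5 genes, 4 span more than 200 kb. Among 962 tested genes of at least that span, 7.80% were lower and 6.76% higher in Csmd3-/-, against 2.54% and 5.21% of the 19815 tested genes with a known span. The median log2 fold change of the long genes was -0.05. This split was chosen after the values of the members were seen, and it is a description of these libraries.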

How the data were processed

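The deposited table holds whole-number gene counts per library, per the file headers. The authors' values are treated as estimated counts because low values pile up at multiples of 4. They needed no rounding. HISAT2 2.0.5, StringTie 1.3.4, Trim Galore 0.4.4, FastQC 0.11.9 and the build mm10 appear in the submitters' processing notes, without roles. The program that wrote the counts was not given in the sources used here, nor were its annotation and its use of strand.

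Rows were named from GENCODE M21 (55141 of 55401 matched). Genes were compared with edgeR 4.0.16 (R 4.3.3) after filterByExpr and TMM, with robust quasi-likelihood F-tests, with Benjamini-Hochberg adjustment over 19844 genes and a threshold of 0.05. Standard errors (SE) were derived from the fold change and its F statistic. Log2 CPM for profiles used a prior count of 2. Exon length is the union of annotated exons. Coding sequences were aligned with MAFFT 7.526. RefSeq lists the promoters of all 5 genes under Tafa.

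Named genes were the members, Csmd3, all genes of partner lists of up to 5 genes, otherwise up to 4 past the threshold, the 3 closest genes per member, genes that overlap a member, and up to 2 genes of a marker list. Nlgn2 lies outside this rule and was chosen after its value was seen. Some genes of the partner and marker lists, and 1 marker list, are not reported here. The members, lists and tests were chosen with earlier results of these data known. The alternatives tried were DESeq2 1.42.0, upper-quartile and RLE scaling, 2 other filters, a fit that was not robust, the replicate number as a block, counts divided by 4, each library left out, Csmd3-/- libraries 2 and 3 left out, and another gene length. On simulated counts for this comparison (19237 genes), 85.9% of 71 changes of 1.5 on the log2 scale were recovered. For changes of 1 it was 64.2% of 67, and for 0.5 16.1% of 62. Of the unchanged genes 13 were called. Fewer genes were changed there than were called in the data, so these shares need not hold for the data.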

Additional observations from a re-analysis of the deposited data

How the results depend on the processing

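The log2 fold changes of Fam19a1, Fam19a2, Fam19a5 and Csmd3 kept their sign in all 15 alternatives. With each library left out in turn they ran from -1.75 to -1.5 for Fam19a1, -0.84 to -0.70 for Fam19a2, -0.48 to -0.24 for Fam19a5 and -0.67 to -0.52 for Csmd3. These refits reuse the comparison that was known when the family was put forward. They show how far the values depend on single libraries and cannot support the choice of the family. Fam19a1 and Fam19a2 met the threshold in each of those fits. Without Csmd3-/- libraries 2 and 3, Fam19a1 (-1.52), Fam19a2 (-0.69) and Csmd3 (-0.60) no longer met it, in a fit with fewer samples that assumes the lone Csmd3-/- library to vary like the WT libraries. In that fit 262 genes were higher and 43 lower, and 0 partner genes were called in either direction, while Gpr1 (-0.12) and Nrxn3 (0.042) changed sign. Lrrc4b changed sign without WT library 1 (0.07) or Csmd3-/- library 1 (0.15), and ran from -0.49 to 0.15 with single libraries left out. It was -1.52 without Csmd3-/- libraries 2 and 3. The cause was not tested.

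Libraries with the same number did not deviate together over all genes (correlations of deviations 0.028, -0.0026 and 0.0016). Not every library correlated best with its own number. A pairing that touches only some genes would not show in these correlations. With the replicate block 686 genes were higher and 255 lower, partner genes numbered 1 higher and 2 lower, and Csmd3 was at -0.58, no longer past the threshold. DESeq2 gave 921 lower genes. RLE scaling and a fit that was not robust each left 1 partner gene higher, and the latter left 3 lower. Leaving out single libraries gave 472 to 1402 higher and 137 to 956 lower genes, with 1 higher partner gene in each fit and 0 to 6 lower ones. The WT ratio of Fam19a2 to Fam19a5 was 1.31 to 1.46 and that of Fam19a5 to Fam19a1 8.41 to 10.9. Depth limits Fam19a3 and Fam19a4, and 31 fragments set the precision of Fam19a1.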
